A study of Salmo salar with 37 samples.

Results

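The testes described here came from 10 maturing Atlantic salmon males, 5 fed a normal ration (NR) and 5 fed a restricted ration (RR). They are 10 of the 37 males of the series, each measured on an array of its own. The 10 were chosen by the status code HKT in the submitters' naming of the intensity measurements, read here as high 11-ketotestosterone, the main androgen of male fish. The rations were taken from the sample titles. The 5 maturing NR males (males 12 to 16) were sampled on 5 January and the 5 maturing RR males (males 17 to 21) on 26 January. Both groups were kept in sea cages, with 1 cage for each ration. The NR cage was fed daily, and the RR cage received the same daily ration on Mondays, Wednesdays and Fridays only. Type A spermatogonia were the furthest developed germ cells of the males selected for the arrays, since males with later stages had been left out, and maturing males were separated from immature ones by a higher proliferation of single cells seen in sections. Compared with them below are 6 immature NR males of 5 January and 7 immature RR males of 26 January, which share the dates and rations of the maturing groups.

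In the immature salmon testis, type A spermatogonia lie enclosed by Sertoli cells, and Leydig cells between the tubules make androgens. At the start of puberty, pituitary gonadotropins raise androgen production, and spermatogonia and Sertoli cells begin to divide more often. Dividing cells need DNA replication factors, cyclins and spindle proteins, and growing cells need nucleotides, energy, protein synthesis and an endoplasmic reticulum that folds and exports proteins. The 10 arrays allow these gene groups to be compared between maturing testes of fish on different rations. The study reports significantly higher plasma androgen levels in maturing RR than in maturing NR males. It also reports that testis weight relative to body weight rose significantly over immature males only in the RR group. Whether both maturing groups had reached the same degree of maturation was not tested here. The differences given below were not adjusted for androgen level or testis weight.

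All values are levels on a log2 scale, taken from the background-corrected fluorescence of each probe and quantile normalized between arrays, so that a difference of 1 is a 2-fold change. Of 43689 probes, 40475 were well above background on at least 5 of the 10 arrays and were tested with limma. Probes that changed more than 1.5-fold, with an adjusted p (Benjamini-Hochberg) under 0.01, are called higher or lower here. Gene descriptions were at hand only for probes that the study had listed as changed in at least 1 of its own comparisons, 1974 of the probes tested. Of these, 887 came from the study's list for maturing RR against NR males, drawn from the same samples. The share of called probes within any gene list below is therefore raised by how the names were obtained and is no independent evidence. Of the 1902 tested probes whose description names a gene, 890 were called, 707 higher and 183 lower. List counts are to be set beside these. The nucleotide synthesis, carbon metabolism, proteasome, interferon and immune cell lists had shares of higher probes near this one. That of oxidative phosphorylation lay below it. The p-values weigh a group difference against the spread between males within the groups. With 1 cage for each ration, they do not cover variation between cages. In bulk tissue, fewer cells of a type and less RNA per cell cannot be told apart.

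Sampling date and cage lay wholly with ration in the maturing males and cannot be told apart from it. All 5 NR arrays were scanned on scan day 1, and 4 of the 5 RR arrays on scan day 2. RR male 19 was the only maturing RR male of scan day 1. The median processed signal of an array lay between 243 and 279 in NR males and between 257 and 443 in RR males (exact permutation test, two-sided, p = 0.0159, where 0.00794 is the smallest possible). The value of 257 was that of RR male 19, within the NR range, and the RR males of scan day 2 lay between 351 and 443. The test does not tell ration from scan day. Probes well above background numbered 38916 to 41113 in NR and 39218 to 43121 in RR males (p = 0.675, same exact test). RR male 20 stood apart from the other males. On the first principal component, with 44.2% of the variance, it lay at 172.24, while the other 9 males lay between -55.68 and 11. In RR male 20, 8500 probes were more than 2-fold from the median of the other RR males, against 770 to 1429 probes in each of the others. Testis isozyme creatine kinase and testis-specific tubulin alpha were well above background on all 10 arrays.

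**Figure D1:**
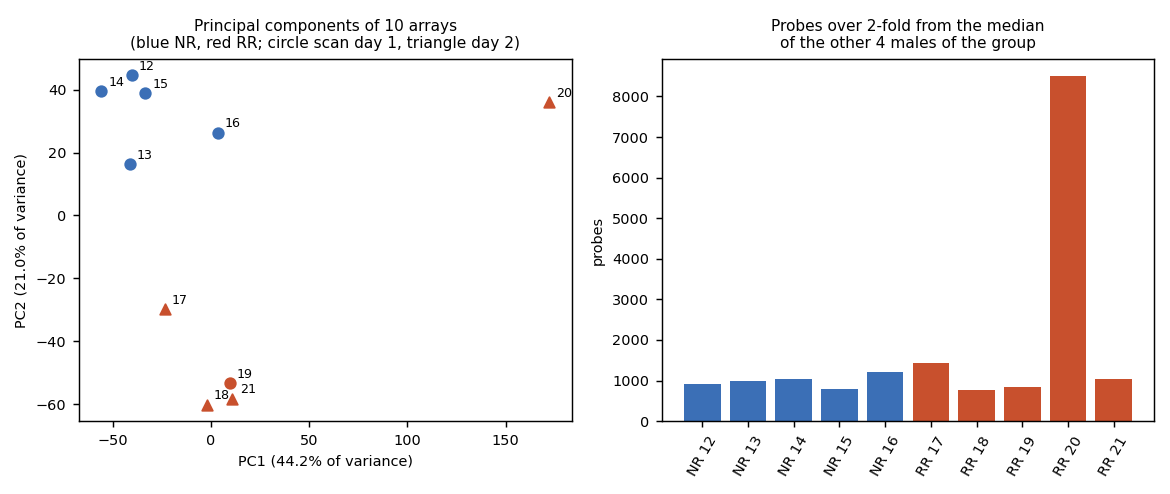
Left, the first 2 principal components of the 10 maturing arrays (axes in component units, percent of variance in the labels), with NR males in blue, RR males in red, circles for scan day 1 and triangles for scan day 2. Right, bars give for each male the number of probes more than 2-fold from the median of the other 4 males of its group. RR male 20 stands alone at 172.24 on the first component and with 8500 probes, and RR male 19 (scan day 1) lies beside RR males 18 and 21 (scan day 2).

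The question of the main comparison was how the testes of maturing RR males differed from those of maturing NR males. Many genes of replication, mitosis, protein folding and tRNA charging were higher in RR males, with medians of 0.81 to 1.03 for these gene lists. Nucleotide synthesis had a median of 0.74, but its share of higher probes was near that of all probes with a gene description. Genes of cilia and red blood cell genes were lower, with medians of -0.76 and -1.17. In all, 2457 probes (6.07% of those tested) were called, 1553 higher (3.84%) and 904 lower (2.23%) in RR males. Of these, 507 rose and 321 fell more than 2-fold, and 13772 probes had an unadjusted p below 0.05. Over all probes tested, called or not, the groups did not overlap in 16.0%. Among called probes they did not overlap in 1511 of the 1553 higher and 874 of the 904 lower ones. A lack of overlap therefore adds little to a call. Without RR male 20, 2669 probes (6.59%) were called, 1332 of the higher and 753 of the lower probes among them.

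Scan day bears on every count given here. With scan day as a block in the fit of the 10 arrays, a setting added after the data had been seen, no probe was called (limma, 7243 at an unadjusted p below 0.05), and the ration difference then rested on RR male 19 against the 5 NR males. Within scan day 1 that male can be read directly. Without RR male 19, 1109 probes (2.74%) were called from the other 4 RR males, 696 of them higher (1.72%). The median distance of RR male 19 from the NR mean over these 1109 probes was 1.01, and the median difference of the other 4 RR males was 0.97. Both values are descriptions, because they rest on the same 5 NR males with which the probes were called. All 37 arrays fitted together with scan day as a term, also added afterwards, gave 1771 called probes (4.38%), 1248 higher (3.08%) and 523 lower (1.29%), of which 1085 were shared with the main comparison. In that fit the medians were 0.79, 1.03 and 1.03 for the lists of replication, cyclins and kinases, and kinetochore and spindle, with 12, 13 and 15 probes called. For cilia the median was -0.56 with 7 probes called, and for red blood cell markers -0.77 with 0 called.

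The count of calls also moved with single males. The fits without NR male 14 or NR male 12 gave 615 and 660 calls, 613 and 653 of them shared with the main comparison, and those without NR male 15 or NR male 13 gave 772 (765 shared) and 1126 (1076 shared). Among RR males, there were 870 calls without male 18 (853 shared), 1062 without male 21 (1033 shared) and 1109 without male 19 (1059 shared). The count was 3512 without RR male 17 and 2656 without NR male 16. These males lay nearest to the opposite group: by the mean over the probes of a list, NR male 16 was the highest NR male and RR male 17 the lowest RR male in each of the 11 gene lists of growth and division described next. Counts within lists moved as well: without RR male 19, 16 of 42 replication, 9 of 35 carbon metabolism, 0 of 34 oxidative phosphorylation, 11 of 28 tubulin and chaperonin and 4 of 21 interferon probes were higher, while the medians of the 11 lists then lay between 0.44 and 1.0.

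**Figure D2:**
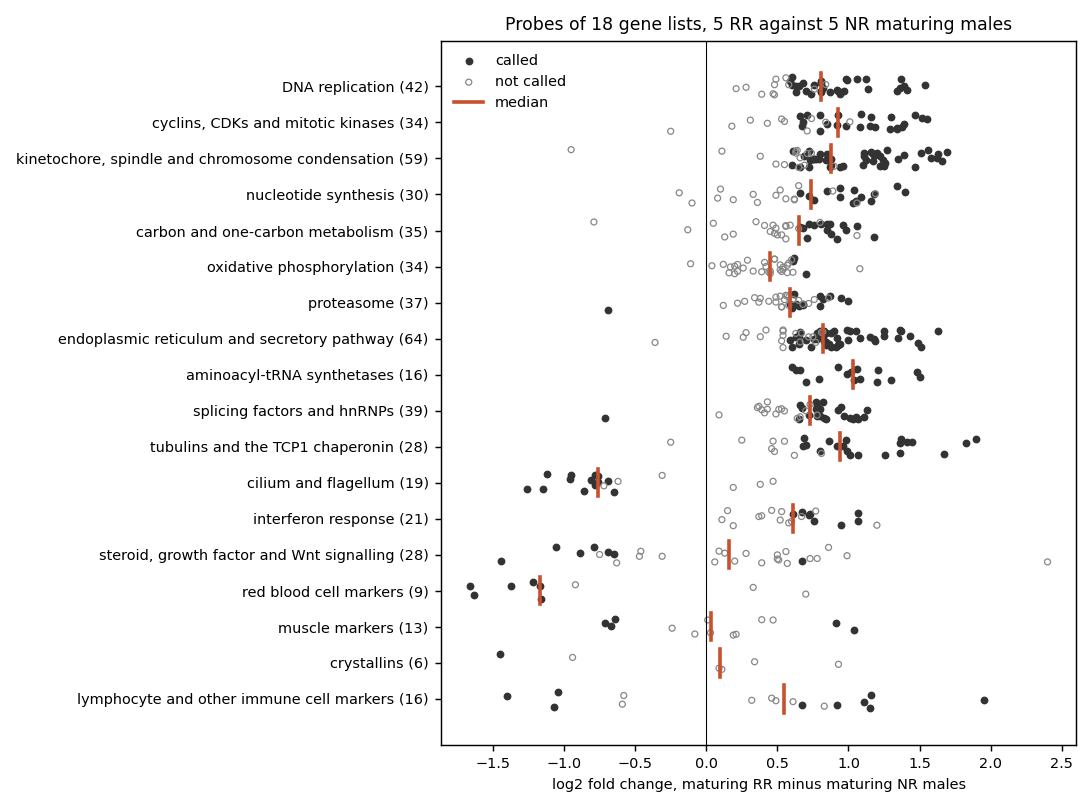
Each point is a probe of 1 of 18 gene lists (number of probes in brackets), placed by its log2 fold change between maturing RR and NR males on the horizontal axis. Filled points were called, open points were not, and the red bar is the median of the list. Medians of the lists of growth and division lie between 0.45 and 1.03, that of the cilium list at -0.76 and that of red blood cell markers at -1.17, while the median of all probes tested was -0.02.

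The DNA replication machinery was higher in maturing RR testes: 31 of 42 probes rose and 0 fell, 25 of the 42 coming from the study's list for this comparison. The median of the list was 0.81. DNA topoisomerase 2-alpha, which untangles replicated DNA, measured 10.35, 10.52, 10.25, 10.42 and 11.02 in NR males 12 to 16 and 11.81, 12.10, 12.05, 11.87 and 12.45 in RR males 17 to 21. Every RR male lay above every NR male. The difference was 1.54 ± 0.17 (SE, n = 5 and 5), a 2.91-fold increase (limma with Benjamini-Hochberg adjustment, adjusted p = 0.00159). The sliding clamp proliferating cell nuclear antigen (PCNA), widely used as a marker of S phase, was represented by 2 probes that behaved differently. Its higher-changing probe measured 14.60, 14.92, 14.62, 14.82 and 15.26 in NR and 15.84, 16.44, 16.17, 16.49 and 16.07 in RR males, without overlap (1.36 ± 0.17, adjusted p = 0.00183, limma). The other PCNA probe differed by 0.21 ± 0.10 (adjusted p = 0.197, limma), and its groups overlapped. CDC45, a part of the replicative helicase, was 6.35, 6.93, 6.34, 6.62 and 7.08 in NR and 8.11, 8.52, 8.36, 7.08 and 8.30 in RR males (1.41 ± 0.27, adjusted p = 0.00713, limma), with RR male 20 at the level of the highest NR male. Other called members were flap endonuclease 1 (1.12), which trims Okazaki fragments, DNA ligase 1 (0.97), which seals them, and the helicase loading factor Cdc6 (0.87). The licensing factor MCM3 (0.39) and origin recognition complex subunit 5 (0.28) did not pass.

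Cyclins and mitotic kinases followed the same course, with 24 of 34 probes called higher, 0 lower and a median of 0.93. Cyclin-B1, the partner of Cdk1 at entry into mitosis, measured 11.35, 11.31, 11.15, 11.27 and 11.88 in NR males and 12.58, 12.65, 13.12, 13.11 and 13.12 in RR males. No RR male reached down to an NR male, and the increase was 1.52 ± 0.17 (2.87-fold, adjusted p = 0.00159, limma). The spindle checkpoint kinase BUB1 beta had levels of 6.45, 6.60, 6.45, 6.52 and 7.23 in NR and 7.70, 8.19, 8.34, 8.54 and 8.21 in RR males (1.55 ± 0.19, adjusted p = 0.00186, limma), again without overlap. Ki-67, a protein found in the nuclei of cycling cells, was called with both of its probes (each 1.34). Aurora kinase A (described as serine/threonine-protein kinase 6) rose by 1.38, cyclin-A2 by 1.30, the transcription factor FoxM1, which drives genes of mitosis, by 1.16, and the G1/S cyclin E1 by 0.92. Cyclin-D1, which acts earlier in G1, was the only member with a negative difference (-0.25 ± 0.14, adjusted p = 0.256, limma).

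The largest of the division lists holds kinetochore, spindle and condensin genes, with 45 of 59 probes higher, 0 lower and a median of 0.88. Survivin (baculoviral IAP repeat-containing protein 5), a subunit of the chromosomal passenger complex, measured 10.29, 10.39, 10.24, 10.44 and 10.99 in NR and 11.77, 11.91, 12.35, 12.23 and 12.54 in RR males. The ranges were separate, and the difference was 1.69 ± 0.19 (3.23-fold, adjusted p = 0.00159, limma). Its complex partner borealin rose by 1.62, the spindle pole protein Aspm by 1.66 ± 0.25 (adjusted p = 0.00291, limma), kinetochore-associated protein 1 by 1.63 and 1.25 with its 2 probes, and condensin complex subunit 1 by 1.58 and 1.22. Structural maintenance of chromosomes protein 1B, a cohesin subunit specific to meiosis, had the only negative value (-0.95 ± 0.23, adjusted p = 0.0163, limma). It measured 15.28, 14.49, 14.55, 14.84 and 15.47 in NR and 14.46, 14.04, 13.82, 13.56 and 13.97 in RR males. These ranges did not overlap, but the adjusted p missed the threshold.

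**Figure D3:**
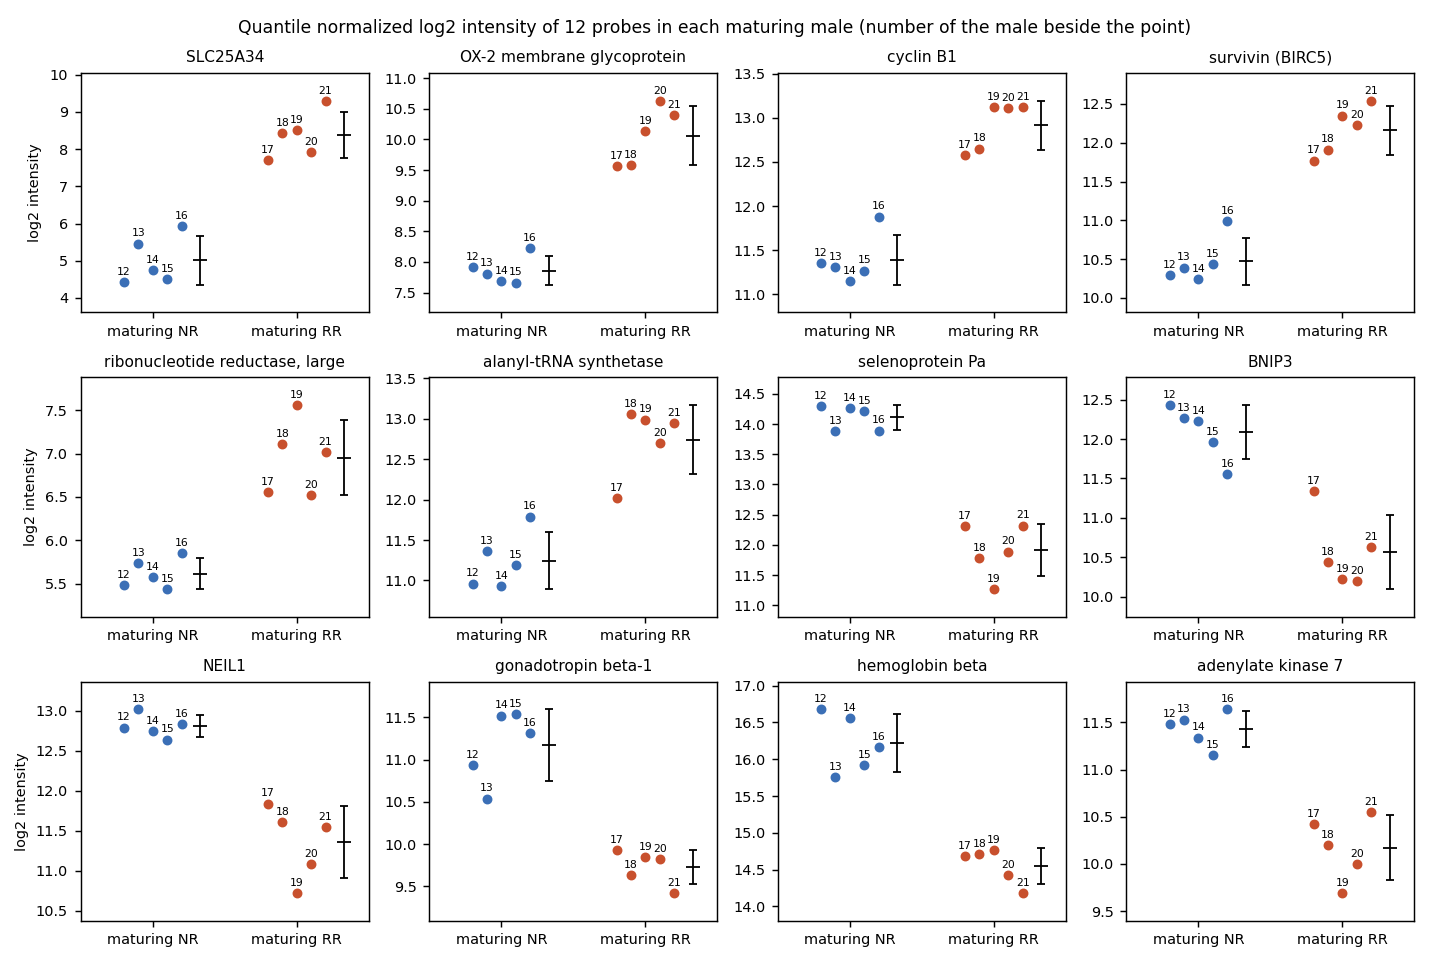
Log2 levels of named probes in each maturing male, with 1 panel for each of 12 probes (vertical axis log2 intensity), NR males in blue and RR males in red, the number of the male above its point, and bars for the group mean ± SD. In the panels shown the groups do not overlap, with RR males higher in the first 6 (cyclin-B1 at 12.58 to 13.12 against 11.15 to 11.88) and lower in the other 6 (selenoprotein Pa at 11.27 to 12.32 against 13.88 to 14.30). For probes named as largest changes, the lack of overlap was a condition of the choice.

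Of the enzymes of nucleotide synthesis, 14 of 30 probes were higher and 0 lower (median 0.74). The share of higher probes was near that of all probes with a gene description (707 of 1902). Thymidylate synthase, which makes the thymidine nucleotide needed for DNA alone, measured 9.30, 9.69, 9.18, 9.28 and 10.19 in NR and 10.68, 10.73, 11.25, 11.25 and 10.72 in RR males. The highest NR male stayed below the lowest RR male (1.40 ± 0.21, adjusted p = 0.00299, limma), although a second probe (1.06) was not called. The large subunit of ribonucleotide reductase, which turns ribonucleotides into deoxyribonucleotides, was 5.48, 5.74, 5.58, 5.44 and 5.85 in NR and 6.56, 7.11, 7.56, 6.52 and 7.02 in RR males (1.34 ± 0.20, adjusted p = 0.00266, limma), without overlap. Cytosolic thymidine kinase (1.18), dihydrofolate reductase (1.16) and the small ribonucleotide reductase subunit M2 (1.03) were called too. In the pentose phosphate branch that supplies ribose, ribose-phosphate pyrophosphokinase 1 differed by 0.56 ± 0.09 (adjusted p = 0.00294, limma), under the fold threshold, and ribose-5-phosphate isomerase by 0.52 ± 0.22 (adjusted p = 0.13, limma).

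Carbon and one-carbon metabolism had 15 of 35 probes higher and 0 lower (median 0.65). This share of higher probes was near that of all probes with a gene description (707 of 1902). D-3-phosphoglycerate dehydrogenase, the entry to serine synthesis from glycolysis, measured 13.96, 14.12, 13.83, 13.93 and 14.01 in NR and 14.76, 15.01, 15.18 and 15.21 in RR males 17, 18, 19 and 21, with RR male 20 just below RR male 18. The spread within each group was small beside the difference of 1.06 ± 0.11 (adjusted p = 0.00159, limma). The regulatory subunit of glutamate-cysteine ligase, the first enzyme of glutathione synthesis, rose by 1.18 ± 0.21 (adjusted p = 0.00528, limma). In the mitochondrion, the rise was 0.92 ± 0.12 for the beta chain of GDP-forming succinyl-CoA ligase, 0.88 ± 0.15 for medium-chain acyl-CoA dehydrogenase, 0.72 ± 0.12 for pyruvate dehydrogenase E1 alpha and 0.66 ± 0.13 for the beta subunit of NAD-dependent isocitrate dehydrogenase. The alpha subunit of the trifunctional enzyme of fatty acid oxidation (0.56 ± 0.10, adjusted p = 0.00564, limma) stayed under the fold threshold, while its beta subunit (0.96) passed. S-adenosylmethionine synthetase type 1, which makes the methyl donor of the cell, rose by 0.76 ± 0.10 (adjusted p = 0.00214, limma).

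Respiratory chain genes differed least among the growth lists. Of 34 probes for oxidative phosphorylation, 3 were called higher and 0 lower, and the median was 0.45, although 33 of the 34 values were positive. The largest called value was that of ATP synthase subunit delta, with 12.13, 12.19, 12.09, 12.03 and 12.47 in NR and 12.74, 12.78, 13.01, 13.09 and 12.80 in RR males (0.70 ± 0.11, adjusted p = 0.00381, limma). The ranges were separate by a narrow margin. A second probe for the same subunit differed by 0.20 and was not called.

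The endoplasmic reticulum and secretory pathway had 45 of 64 probes higher and 0 lower, with a median of 0.82. The 48 kDa subunit of oligosaccharyltransferase, which attaches sugar chains to proteins entering the endoplasmic reticulum, measured 9.20, 8.75, 9.10, 8.89 and 9.71 in NR and 10.73, 10.94, 10.64, 10.95 and 10.53 in RR males. No RR male lay below an NR male (1.63 ± 0.18, 3.09-fold, adjusted p = 0.00159, limma). Subunit 4 of the same complex rose by 1.51 ± 0.17 (adjusted p = 0.0016, limma). The chaperones endoplasmin (1.35) and calreticulin (1.25 and 0.99) and the KDEL receptor that returns such chaperones, ER lumen protein retaining receptor 2 (1.19 and 1.15), were called as well.

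All 16 probes of aminoacyl-tRNA synthetases, the enzymes that load amino acids onto tRNAs, were called higher (median 1.03, range 0.60 to 1.5). Alanyl-tRNA synthetase measured 10.96, 11.36, 10.93, 11.19 and 11.79 in NR and 12.02, 13.06, 12.99, 12.70 and 12.95 in RR males. RR male 17 was the lowest RR male and still lay above NR male 16 (1.5 ± 0.23, adjusted p = 0.003, limma). Asparaginyl-tRNA synthetase rose by 1.48 ± 0.25 (adjusted p = 0.00452, limma). This list was sensitive to single males: without RR male 19, 6 of the 16 probes were called, at a median of 1.0. Among splicing factors and hnRNPs 22 of 39 probes were higher and 1 lower (median 0.73). In this list hnRNP L rose by 1.13 ± 0.20 (adjusted p = 0.00521, limma) and hnRNP A0 by 1.11 ± 0.15 (adjusted p = 0.00209, limma), while hnRNP D0 fell (-0.71). The proteasome had 13 of 37 probes higher and 1 lower (median 0.59). It was led by subunits beta type-6 (1.0 ± 0.15, adjusted p = 0.00298, limma) and alpha type-7 (0.95 ± 0.11, adjusted p = 0.00178, limma). Without RR male 19, 4 proteasome and 9 splicing probes were higher.

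Tubulins and the chaperonin that folds them had 20 of 28 probes higher and 0 lower (median 0.94). Tubulin alpha-1A measured 14.11, 14.22, 14.11, 14.33 and 14.66 in NR and 15.83, 16.41, 16.28, 16.21 and 16.17 in RR males. More than 1 unit separated the groups, and the difference of 1.90 ± 0.14 was a 3.72-fold increase with the smallest adjusted p of any probe (0.00122, limma). Of the chaperonin, subunit zeta rose by 1.26 and 0.69 with its 2 probes. The testis-specific tubulin alpha chain differed by 0.25 and was not called.

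Several of the largest increases lay outside these lists. Those with a description were picked among called probes whose groups did not overlap, so the lack of overlap follows from the choice. Solute carrier family 25 member 34, a member of the mitochondrial carrier family, had the largest increase among these probes. It measured 4.42, 5.46, 4.74, 4.51 and 5.94 in NR and 7.70, 8.43, 8.51, 7.92 and 9.30 in RR males, a 10.2-fold difference without overlap (3.36 ± 0.36, adjusted p = 0.00159, limma). OX-2 membrane glycoprotein (CD200), which dampens the activity of myeloid cells in mammals, was 7.91, 7.81, 7.68, 7.66 and 8.23 in NR and 9.56, 9.58, 10.14, 10.63 and 10.40 in RR males, and its 2 probes rose by 2.21 ± 0.22 and 2.11 ± 0.21 (both adjusted p = 0.00159, limma). The gene described as C20orf54 homolog, in human a riboflavin transporter, rose by 2.18 ± 0.32, the vesicle transport protein GOT1B by 1.90 ± 0.26 and interleukin enhancer-binding factor 2 by 1.86 ± 0.20, each without overlap. The 2 largest called increases without a description were 2.15 and 2.10.

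The largest decreases of described genes were likewise picked among called probes without overlap. Selenoprotein Pa, a secreted carrier of selenium, had the largest decrease among them. It measured 14.30, 13.88, 14.26, 14.21 and 13.89 in NR and 12.31, 11.78, 11.27, 11.89 and 12.32 in RR males. The 5 RR males lay more than 1.5 units below the lowest NR male (-2.19 ± 0.20, 4.57-fold lower, adjusted p = 0.0015, limma). BNIP3, which marks mitochondria for degradation in mammals, was 12.43, 12.27, 12.23, 11.96 and 11.56 in NR and 11.34, 10.44, 10.22, 10.20 and 10.63 in RR males, without overlap (-1.52 ± 0.24, adjusted p = 0.00322, limma). GDP-L-fucose synthetase, which makes the fucose donor of glycosylation, fell by 1.45 ± 0.16 (adjusted p = 0.00159, limma), and the DNA repair glycosylase endonuclease VIII-like 1 by 1.44 ± 0.20 (adjusted p = 0.00228, limma). The 2 largest called decreases without a description were -3.40 and -3.15. In the first of these, RR male 20 (8.23) lay close to the lowest NR male (8.31), while the other RR males lay between 4.28 and 4.72.

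Genes of cilia and flagella were lower, with 13 of 19 probes called lower, 0 higher and a median of -0.76. Adenylate kinase 7, found in motile cilia and sperm tails of mammals, measured 11.48, 11.53, 11.34, 11.15 and 11.64 in NR and 10.42, 10.20, 9.69 and 10.55 in RR males 17, 18, 19 and 21, with RR male 20 between males 18 and 19. The ranges did not meet (-1.26 ± 0.17, 2.39-fold lower, adjusted p = 0.00217, limma). WD repeat-containing protein 16 was 9.69, 9.84, 9.80, 9.76 and 9.83 in NR and 9.0, 8.68, 8.57, 8.18 and 8.75 in RR males (-1.15 ± 0.14, adjusted p = 0.00183, limma). Kinesin KIF9 fell by 1.12. Sperm-associated antigen 6 (0.47), tectonic-2 (0.38) and outer dense fiber protein 2 (0.19) had positive differences that were not called.

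Red blood cell markers differed between the maturing groups too. Of 9 probes, 6 were called lower and 0 higher (median -1.17). Positive differences, the larger 0.70, were found for 2 of the 9 and were not called. Hemoglobin subunit beta measured 16.68, 15.76, 16.56, 15.92 and 16.17 in NR and 14.68, 14.71, 14.77, 14.43 and 14.18 in RR males (-1.66 ± 0.20, adjusted p = 0.00173, limma), without overlap. Erythroid 5-aminolevulinate synthase, the first enzyme of heme synthesis in red cells, was 12.65, 11.75, 13.19, 12.33 and 12.12 in NR and 11.45, 11.32, 11.36, 11.08 and 10.96 in RR males (-1.17 ± 0.24, adjusted p = 0.00895, limma). The summed normalized intensity of the 9 probes ranged from 534000 to 745000 in NR and from 239000 to 345000 in RR males. The part that a different blood content had in the other differences was not tested.

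Muscle markers were mixed, with 2 of 13 probes higher (sarcomeric actin 1.04 ± 0.15 and titin 0.91 ± 0.14) and 3 lower, and a median of 0.03 that became -0.10 without RR male 18. The mean over the 13 probes overlapped between the groups. Troponins C and I of skeletal muscle differed by 0.39 and 0.01 and were not called. The sum over the 13 probes was 120000 to 161000 in NR and 148000 to 248000 in RR males. Of the 6 crystallin probes, beta-crystallin A4 fell (-1.45 ± 0.19, adjusted p = 0.00209, limma). Positive differences, up to 0.93 and not called, were found for 4 of the 6 (list median 0.10). The summed crystallin intensity of 6220 to 10000 in NR overlapped that of 6370 to 9030 in RR males. Immune cell markers were also mixed, with 6 of 16 probes higher and 3 lower (median 0.55). T-cell receptor alpha rose by 1.15 and 1.11 with its 2 descriptions and perforin-1, a killing protein of cytotoxic lymphocytes, by 0.92, whereas Toll-like receptor 9 fell (-1.40 ± 0.19, adjusted p = 0.00222, limma). A probe described only by the CXC chemokine domain had 8.84, 8.62, 8.31, 8.80 and 9.55 in NR and 10.30, 10.68, 10.74, 11.42 and 10.75 in RR males (1.95 ± 0.25, adjusted p = 0.00198, limma). The summed intensity of the immune markers was 55600 to 62800 in NR and 56300 to 67300 in RR males.

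Interferon response genes had 8 of 21 probes higher and 0 lower (median 0.61). Interferon-induced protein with tetratricopeptide repeats 1-like, an antiviral RNA-binding protein, measured 6.93, 7.44, 7.03, 7.38 and 6.63 in NR and 8.11, 8.09, 8.05, 8.06 and 8.44 in RR males (1.07 ± 0.16, adjusted p = 0.0029, limma). The 5 RR males all lay above the highest NR male. Interferon regulatory factor 3, which switches on interferon genes, rose with 1 probe (0.95 ± 0.16, adjusted p = 0.0042, limma) and not with the other (0.46 ± 0.28, adjusted p = 0.28, limma). The antiviral GTPase Mx differed by 0.19 ± 0.22 (adjusted p = 0.583, limma), and its groups overlapped.

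Few genes of hormone and growth factor signalling were called, 1 higher and 6 lower of 28 probes (median 0.16, with 17 values above 0). The probe called higher was that of hepatoma-derived growth factor (0.67 ± 0.09, adjusted p = 0.00231, limma). The highest value of the list, 2.40 ± 0.60, belonged to a probe described only by the domain of insulin-like growth factors, which did not pass (adjusted p = 0.0197, limma). It measured 4.82 to 7.12 in NR males and 8.38 to 9.20 in RR males 18 to 21, while RR male 17 lay within the NR range. Gonadotropin subunit beta-1, the hormone-specific subunit of follicle-stimulating hormone and best known from the pituitary, measured 10.94, 10.54, 11.52, 11.54 and 11.31 in NR and 9.93, 9.63, 9.85, 9.82 and 9.42 in RR males. All RR males lay below all NR males (-1.44 ± 0.20, adjusted p = 0.00234, limma). Inhibitor of DNA binding 3, a target of bone morphogenetic protein signals, fell by 1.06 ± 0.15 (adjusted p = 0.00245, limma), and Smad7 (described as mothers against decapentaplegic homolog 7), an inhibitor of that pathway, by 0.65. The steroidogenic enzyme 3 beta-hydroxysteroid dehydrogenase had differences of -0.46 ± 0.18 and -0.47 ± 0.23 with its 2 probes (adjusted p = 0.108 and 0.176, limma), with overlapping groups. Insulin-like growth factor-binding protein 4 (0.86) and Wnt-11 (0.50) did not pass.

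**Figure D4:**
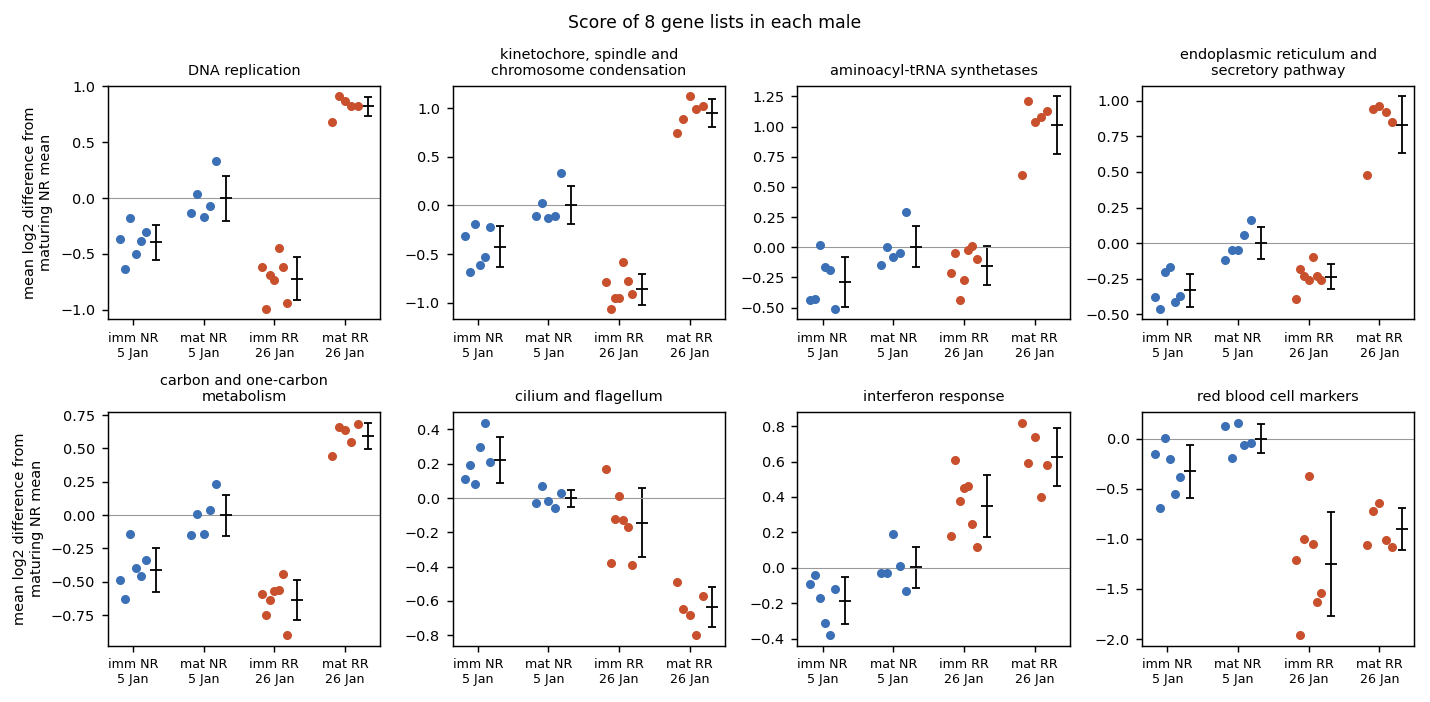
The mean deviation from the maturing NR mean over the probes of each list (log2, vertical axis) in every male of 4 groups for 8 of the lists, immature NR and RR and maturing NR and RR, each point a male and each bar the group mean ± SD. For the replication and kinetochore lists the maturing RR males lie above all other groups (DNA replication 0.68 to 0.91) and the immature RR males have the lowest mean (-0.72 for DNA replication). For interferon and red blood cell lists the RR males differ from NR males in the same direction in both statuses.

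The next question was whether immature RR and NR males of the same dates differed in the same way. In these immature males too, which were picked to match the dates of the maturing groups, ration lay wholly with date and cage. The series also holds immature RR males of 5 January, 3 of scan day 1 and 1 of scan day 2. Those males were not set against the NR males here. All 6 NR arrays were scanned on scan day 1, and 5 of the 7 RR arrays on scan day 2. The ration effect below is the RR minus NR difference, which holds date and cage as well and was not adjusted for scan day. In the immature males, 7 RR against 6 NR, 105 probes were called (0.259% of those tested), 70 higher (0.173%) and 35 lower (0.0865%), and 11425 had an unadjusted p below 0.05. The difference between the ration effects in maturing and immature males was tested in a fit of all 37 arrays. It passed the thresholds for 2169 probes (5.36%), 1500 (3.71%) with a more positive and 669 (1.65%) with a more negative ration effect in maturing males. Of the probes called in the main comparison, 867 higher and 250 lower ones were called here in the same direction. The 2 tests share the maturing males. Without NR male 12, 1327 probes were called, 1325 of them among the 2169.

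Probes higher in maturing RR males had no common direction in immature ones, where 45.5% of them were above 0, as were 44.4% of all probes tested. Probes lower in maturing RR males were mostly lower in immature RR males also, 78.7% of them, against 55.6% of all probes. The division genes had medians of opposite sign in the statuses. The DNA replication list had a median of 0.81 in maturing and -0.23 in immature males, the cyclin and kinase list 0.93 and -0.41, and the kinetochore and spindle list 0.88 and -0.47. A different ration effect was called for 21 of 42, 23 of 34 and 35 of 59 probes of these lists, all more positive in maturing males. None of their probes was called in the immature comparison. The way names were obtained may raise these counts and those of the lists below, and over all probes tested 3.71% were called more positive.

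Cyclin-B1 averaged 10.50 ± 0.52 (SD, n = 6) in immature NR and 9.76 ± 0.32 (n = 7) in immature RR males, a difference of -0.74 (adjusted p = 0.134, limma), so that its ration effect was 2.26 larger in maturing males (adjusted p = 0.00223, limma). For survivin the immature difference was -0.61 and the gap between statuses 2.30 (adjusted p = 0.000243, limma). Ribonucleotide reductase large subunit differed by -0.79 in immature males and by 2.13 between the statuses (adjusted p = 1.38e-05, limma). BNIP3 went the other way: it averaged 12.77 ± 0.11 in immature NR and 13.17 ± 0.12 in immature RR males, and its effect was 1.92 more negative in maturing males (-1.92, adjusted p = 6.63e-06, limma). Selenoprotein Pa, at 14.37 ± 0.20 and 14.28 ± 0.32 in immature NR and RR males, was likewise lower in maturing RR than in maturing NR males (difference of effects -2.11, adjusted p = 6.63e-06, limma).

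Secretory pathway and tRNA synthetase genes were near 0 in immature males, with medians of 0.11 and 0.16, and a different effect was called for 23 of 64 and 8 of 16 probes. With 75th percentile scaling in place of quantile normalization, the median difference of effects over all probes moved from 0.01 to -0.22. Under that scaling the median difference of effects was 1.1 for replication, 1.22 for cyclins and kinases and 1.18 for kinetochore and spindle. With quantile normalization these medians were 0.99, 1.52 and 1.42. Each of the 11 lists of growth and division had at least 0.70 under that scaling. Counts of more positive effects moved from 21, 23 and 35 to 24, 19 and 24 for the first 3 lists. For oxidative phosphorylation the count moved from 7 to 19 and for the proteasome from 15 to 28.

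**Figure D5:**
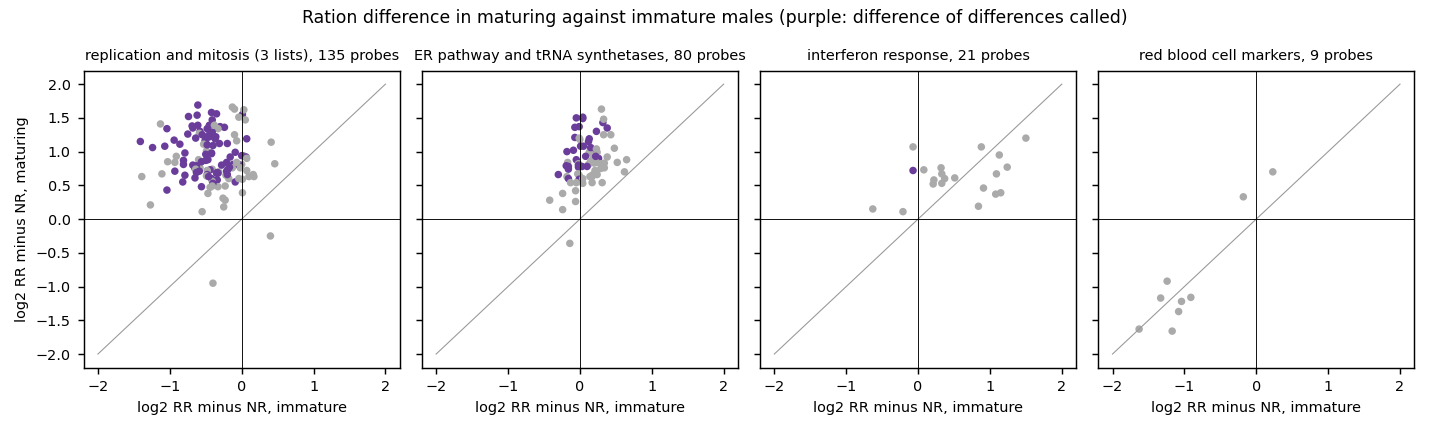
The ration difference (log2, RR minus NR) in maturing males on the vertical axis against that in immature males on the horizontal axis, each point a probe, with purple for probes whose ration effect was called different between the statuses and the diagonal marking equal effects. Replication and mitosis probes lie mostly in the upper left, with medians of 0.81 to 0.93 in maturing and -0.23 to -0.47 in immature males, whereas red blood cell markers lie along the diagonal.

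Some genes showed a like difference in both statuses. Red blood cell markers had a median of -1.17 in maturing and -1.08 in immature males, where 0 of the 9 probes were called. Their median difference of effects was -0.01, and none was called for a different effect. The errors were wide: the named probes of hemoglobin subunits beta and alpha had differences of effects of -0.49 ± 0.65 and -0.01 ± 0.73 (SE). Hemoglobin subunit alpha fell by 1.63 in the maturing males and had an immature value of -1.63 (adjusted p = 0.0464, limma, not called). The interferon list had 8 of 21 probes higher in immature RR males, at a median of 0.37, and 4 of the 21 values were below 0. Over all probes tested 0.173% were higher there, but the names of list probes came from the study's own comparisons. The count of 8 is therefore no independent evidence. Of 21 interferon probes, 1 was called for a different effect, the double-stranded RNA-activated protein kinase (0.79). Poly [ADP-ribose] polymerase 15 rose by 1.07 ± 0.13 in maturing RR males and differed by -0.07 in immature males. Its difference of effects of 1.14 (adjusted p = 0.0432, limma) was not called. Interferon regulatory factor 3 was higher in RR males of both statuses, by 0.95 in maturing and 1.13 in immature males (adjusted p = 4.13e-05 in immature, limma). The extracellular matrix protein thrombospondin-3b rose by 1.80 ± 0.27 and 1.39, from 13.22 to 14.46 in maturing NR males to 15.93, 15.72, 15.14 and 16.08 in RR males 17, 19, 20 and 21, and RR male 18 was the lowest of the RR males, above all NR males. The small GTPase ADP-ribosylation factor-like 4C fell in both (-1.16 and -0.82). Beta-crystallin A4 had -1.45 in maturing and -1.99 in immature males (adjusted p = 0.0176 in immature, limma, not called). All 6 crystallin values were negative in immature males (median -1.07), against 2 of 6 in maturing males. GDP-L-fucose synthetase and Toll-like receptor 9, lower in maturing RR males, had -0.90 and -1.11 in immature males, neither called. The cilium list had a median of -0.76 in maturing and -0.38 in immature males, where all 19 values were negative and 1 was called. Its median difference of effects was -0.47, with 3 probes called for a more positive and 3 for a more negative effect in maturing males.

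A last comparison set maturing against immature males of the same date and ration, which also checks the status code. In RR males, 9413 probes were called (23.3%), 5352 higher and 4061 lower in maturing males. With 75th percentile scaling the split was 4604 higher and 5363 lower, with 7011 probes called under both scalings. The median over all probes was -0.01 after quantile normalization and -0.23 with that scaling. In NR males, 8 probes were called (0.0198%), all higher in maturing males, and 4999 had an unadjusted p below 0.05. That count was 0 without NR male 13, 15 or 16, 5 without NR male 14 and 28 without NR male 12. Among the 8 were testis isozyme creatine kinase (1.65), interleukin-13 receptor alpha-2 (1.5) and peroxiredoxin-6 (0.73). List counts in RR males are raised here too, since names came partly from the study's own comparison of maturing with immature males of this series. Over all probes tested 13.2% were higher in maturing RR males, and the share among described probes was not computed. Of 42 replication probes 40 were higher in maturing RR males (median 1.31). In NR males 0 were called and the median was 0.34, with all 42 values above 0. The kinetochore and spindle list had 58 of 59 probes higher and a median of 1.83 in RR males, and 0 called with a median of 0.39 in NR males. The gap between these status differences is the same quantity as the gap between ration effects tested above.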

How the data were processed

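Each of 37 testes was measured on its own one-color 44K salmonid oligonucleotide array. Spot intensities, as the authors deposited them, were on a linear scale and came from Agilent Feature Extraction 10.7.1.1, with flags for background and outliers. The log2 values of the deposited series table departed by at most 5.0e-09 from log2 of the intensity after background subtraction and served as an alternative. From the processed intensity, log2 values without the 1417 control spots were quantile normalized over all 37 arrays, 581 outlier spots were set missing, and probes well above background on at least 5 of the 10 maturing arrays were kept. Differences were fitted with limma 3.58.1 (lmFit, eBayes) in R 4.3.3, the 5 RR against the 5 NR males alone for the main comparison and 7 groups of status, date and ration over all 37 arrays for the others. Functions were tested on simulated data. The number of arrays limits the precision. Status and date were read from the submitters' naming of the measurements, since the labels give neither, and another label field calls every ration normal.

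Gene descriptions came from the study's supplementary list of changed probes (text only, none of its values), and 38501 tested probes had none. The 18 gene lists were matched on these descriptions, and males, lists and tests were chosen with earlier results of these data known. Individually named are the 8 largest called changes in each direction with a gene description and no overlap, the 2 largest called of each list, the 9 carbon metabolism genes the study names and the 2 largest called changes in each direction without a description. Further list members are named as examples chosen after their values were seen. No sequences of probes were used here. Alternatives varied normalization, background correction, the filter, the test, weights, slide, scan day, thresholds and single males.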

Additional observations from a re-analysis of the deposited data

Results flagged for a closer look

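In groups of 5 males, a male was noted where its gap to the nearest other male exceeded 0.71 of the range of its group. Of 158 groups of values searched, 21 held such a male, and chance alone gives about 1 in 20. RR male 17 was the low male for C20orf54 homolog (gap 0.82 of the range), interleukin enhancer-binding factor 2 (0.80), tubulin alpha-2/alpha-4 (0.83), hnRNP L (0.75) and a probe without description (0.94), and for the scores of the secretory pathway (0.77), tRNA synthetase (0.72) and tubulin and chaperonin lists (0.82). NR male 16 was the high male for BUB1 beta (0.81), cyclin-B1 (0.73), survivin (0.73), cytochrome b-c1 complex subunit 10 (0.77), proteasome subunit beta type-6 (0.92), pyruvate dehydrogenase E1 alpha (0.81) and a probe without description (0.74). RR male 20 stood apart for CDC45 (0.72), S-adenosylmethionine synthetase type 1 (0.74), a further probe without description (0.89) and the first principal component (0.82). RR male 21 was apart for interferon-induced protein with tetratricopeptide repeats 1-like (0.85), and NR male 15 for the median signal of its array (0.93).

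The ration effect differed between maturing and immature males for 2169 probes, 28 of the 57 named probes among them (limma with Benjamini-Hochberg adjustment). On the log2 scale, the effect was more positive in maturing males for solute carrier family 25 member 34 (3.32), the C20orf54 homolog (2.52), GOT1B (2.27), interleukin enhancer-binding factor 2 (2.00), tubulin alpha-1A (1.81) and tubulin alpha-2/alpha-4 (1.36). Of the division genes, the difference was 2.16 for DNA topoisomerase 2-alpha, 1.54 for BUB1 beta, 2.26 for cyclin-B1 and 2.30 for survivin. In metabolism it was 2.30 for thymidylate synthase, 2.13 for ribonucleotide reductase large subunit, 1.56 for glutamate-cysteine ligase regulatory subunit, 1.26 for D-3-phosphoglycerate dehydrogenase, 0.71 for cytochrome b-c1 complex subunit 10 and 0.67 for the trifunctional enzyme alpha subunit. Proteasome subunit beta type-6 (1.28), oligosaccharyltransferase subunit 4 (1.47), alanyl-tRNA synthetase (1.55), hnRNP L (1.46), sarcomeric actin (1.24), titin (1.59), the CXC chemokine domain probe (2.13) and probes without description (2.55 and 2.64) also had more positive effects. More negative effects were found for selenoprotein Pa (-2.11), BNIP3 (-1.92) and endonuclease VIII-like 1 (-1.44).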

How the results depend on the processing

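For RR against NR in maturing males, 2457 probes were called. The methods' t-test with Benjamini-Hochberg adjustment gave 1626, array weights 4669, an adjusted p below 0.05 gave 4482, and scan day as a block in the 10 arrays 0 (limma, 7243 at an unadjusted p below 0.05). Leaving out single males gave 615 to 3512 calls. The other 11 settings gave 1771 to 3197. For the difference of ration effects, 2169 were called, with 4586 under array weights, 4024 at an adjusted p below 0.05, 1327 to 3043 without single males and 1785 to 2535 under the other 6 settings. For maturing against immature males, the 9413 calls in RR males ranged from 8346 to 10000 without single males. The 8 in NR males became 29 with 75th percentile scaling and 0 to 28 without single males (4999 at an unadjusted p below 0.05 in the full fit). The cause of these moves was not tested. The scan day settings of the first comparison and all settings of the last were added after the data had been seen. Of the 18 list medians, that of muscle markers turned from 0.03 to -0.10 without RR male 18 (-0.10 to 0.13 over all males left out) and to -0.03 with scan day as a term in the fit of all 37 arrays. With 75th percentile scaling, 2 medians moved by more than the spread between males, oxidative phosphorylation to 0.58 and red blood cell markers to -1.42. Of 57 named probes, 33 were called without each male in turn, and none changed sign. No paired analysis was possible because maturing NR and RR males were different fish, from separate cages and sampling dates. With 5 males a group, a difference that was not called is not shown to be absent, and for dim probes the level is limited by the background.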

Other observations

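Some described genes outside the lists above form further groups, which were put together after their values had been seen and so carry no test. Their counts are to be set beside all 1902 tested probes with a gene description, of which 707 were higher and 183 lower. Of 15 probes for mitochondrial ribosomal proteins, which build the translation apparatus of the mitochondrion, 7 were higher and 0 lower in maturing RR males (median 0.62). Of 10 probes for cytosolic ribosomal proteins, 0 were higher and 2 lower (median 0.21). Both lower probes carried the same description, 40S ribosomal protein S13 (-1.08 and -1.31). Of 24 probes whose description names a histone, 12 were higher and 1 lower (median 0.59). They include proteins that bind or modify histones or act on their RNA. Heat shock proteins and DnaJ homologs had 6 of 11 probes higher and 0 lower (median 0.71). In immature males the medians of these 4 groups were -0.11, -0.69, -0.30 and 0.10.

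Among descriptions carried by more than 1 tested probe, 219 in number, 184 had at least 1 called probe, and in 88 every probe was called in the same direction. These counts are to be read beside the 890 called of all 1902 tested probes with a gene description. Whether probes of 1 description went together more often than others was not tested. For 1 of them, negative elongation factor A, probes were called in opposite directions.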
